A study of Homo sapiens with 78 samples.

Results

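The 10 genes described here belong to the BCL2 family, which decides whether mitochondria are breached during apoptosis. They were fixed by name: the survival members BCL2, BCL2L1, BCL2L2, BCL2A1 and MCL1, the effector BAK1, and the BH3-only members BCL2L11, BAD, BID and BMF. Each was measured by adding the Kallisto values of its annotated transcripts in every well, 71 transcripts in all, out of 33858 genes with at least 1 count in the series.

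The wells held single cells of 2 human lines that carry no treatment in the labels. A375 is a malignant melanoma line and Jurkat is a T cell leukemia line. Cells of both were sorted by FACS and their total RNA was made into stranded libraries with reagents #634413 (SMARTer Stranded Total RNA-Seq v2 Pico Input) or #634444 (SMART-Seq Stranded), which gave 21 A375 and 18 Jurkat wells with each kit. A375 cells were grown in DMEM, stained with anti-CD47 and sorted into PBS. Jurkat cells were grown in RPMI medium, stained with anti-CD81 and sorted into lysis solution. Line, medium, staining and buffer therefore cannot be told apart. Cells of both lines were also labelled with 7-AAD, a dye that enters dead cells. The labels name no culture, so each combination of line and kit is treated as 1 sample of single cells. No test over cells was made: wells are described by their spread, and summed wells (a pool) by exact 95% counting intervals, which cover counting error only.

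The 78 wells held between 909 and 2567265 estimated counts, with a median of 813697. Counts on protein-coding genes were 12462244.6 and 10465850.8 in the A375 pools and 13177040.4 and 10448334.7 in the Jurkat pools (#634413 and #634444). Of the wells, 66 had at least 25% of the median total and at least 50% of their counts on protein-coding genes (intact wells). The 12 others were all A375 wells, 6 with each kit. The summed line markers separated the lines in intact wells. The 10 melanoma line markers together reached 529 to 6984 CPM (counts scaled to the protein-coding total of the well or pool) in intact A375 wells and 0 to 18.3 CPM in Jurkat wells. The 10 T cell markers reached 1176 to 3459 CPM in Jurkat wells and 0 to 30.9 CPM in intact A375 wells. The melanoma sum was carried by S100A6, CSPG4, SOX10 and AXL (159 to 1100 CPM in the A375 pools). The pigment cell markers PMEL (5.78 and 0.0955 CPM), TYR (0.481 and 0.764 CPM) and MLANA (1.52 and 0.672 CPM) were nearly absent from A375, and MLANA with #634444 was at 1.53 CPM in Jurkat. In the A375 pools, the T cell markers CD3D, CD3E and CD2 were at 0.

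Survival members of the family hold back BAK1 and its relative BAX on the outer mitochondrial membrane. BH3-only members are released or induced by stress and bind survival members in a groove, and some of them also engage the effectors directly. Once effectors assemble into pores, cytochrome c leaves the mitochondria and caspases are activated. Several members are spliced into forms that differ in these abilities, so the form matters as much as the level.

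The sequences on which the isoform and readthrough results turn are given first, all from the GRCh38 (hg38) assembly, which is the genome build of the study. BCL2L1 has 2 alternative splice donors at the end of its first coding exon. The 189 bases between them, at chr20:31721655-31721843 on the minus strand, are coding and are kept in the long form of 233 residues but removed from the short form of 170 residues. They are shown in capitals between 12 shared exonic bases and 12 intronic bases. The segment begins with GT and is followed by GT, the bases with which introns of both forms start, and it covers 63 codons.
BCL2L1 segment: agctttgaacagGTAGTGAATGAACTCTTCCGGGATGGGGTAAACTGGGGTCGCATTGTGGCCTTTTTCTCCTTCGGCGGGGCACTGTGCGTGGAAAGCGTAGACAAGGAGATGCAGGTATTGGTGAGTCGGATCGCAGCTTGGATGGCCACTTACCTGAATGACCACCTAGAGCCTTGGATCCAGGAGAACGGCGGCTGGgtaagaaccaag
MCL1 has 3 coding exons in its long form of 350 residues. The middle exon, 248 bases at chr1:150578244-150578491 on the minus strand, is coding and is skipped in the form of 271 residues. It is shown in capitals between intronic bases.
MCL1 exon: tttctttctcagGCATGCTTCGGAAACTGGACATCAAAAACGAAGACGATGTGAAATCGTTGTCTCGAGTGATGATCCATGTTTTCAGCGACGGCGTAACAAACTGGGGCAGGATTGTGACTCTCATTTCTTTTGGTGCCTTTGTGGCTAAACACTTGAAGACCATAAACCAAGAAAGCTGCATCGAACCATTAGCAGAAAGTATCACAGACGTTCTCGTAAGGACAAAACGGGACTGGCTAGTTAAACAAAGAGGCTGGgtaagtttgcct
BCL2L2 shares its first exons with the readthrough gene BCL2L2-PABPN1, whose transcripts run on into the next gene, PABPN1. The last 30 shared coding bases, at chr14:23308170-23308199 on the plus strand, are in lower case. The capitals are the first 30 bases of the exon that follows, at chr14:23308816-23308845 in BCL2L2 and at chr14:23322181-23322210 in the readthrough transcript.
BCL2L2 junction: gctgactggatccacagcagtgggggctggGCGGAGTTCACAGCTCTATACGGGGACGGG
BCL2L2-PABPN1 junction: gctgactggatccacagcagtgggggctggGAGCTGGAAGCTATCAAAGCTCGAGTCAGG

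MCL1 was the survival member with the most counts, and it was higher in A375 than in Jurkat with both kits. MCL1 (ENSG00000143384, chr1:150560895-150579738) encodes a short-lived protein that binds BAK1 and several BH3-only proteins. In A375 wells, MCL1 reached 0, 739 and 2229 CPM (lowest, median and highest) with #634413 and 0, 503 and 1637 CPM with #634444. In Jurkat wells, the corresponding values were 2.93, 107 and 545 CPM with #634413, and 39.1, 183 and 389 CPM with #634444. The A375 well at 2229 CPM was not intact, and the highest intact well of that kit had 1619 CPM. All 15 intact A375 wells of each kit had MCL1 counts, and 12 and 14 of them exceeded the highest Jurkat well of the same kit, although the ranges overlapped. The pools held 814 CPM (798 to 830) and 756 CPM (739 to 772) in A375, and 155 CPM (149 to 162) and 173 CPM (165 to 181) in Jurkat. This was 5.24-fold more in A375 with #634413 (log2 ratio 2.39, 2.32 to 2.46) and 4.37-fold more with #634444 (log2 ratio 2.13, 2.05 to 2.20).

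BCL2L1, which encodes the survival protein BCL-XL, showed the opposite direction (ENSG00000171552, chr20:31664452-31723989). In A375 wells it reached 0, 10.7 and 713 CPM with #634413 and 0, 9.24 and 67.7 CPM with #634444, with counts in 15 of 21 wells of each kit. The A375 well at 713 CPM was not intact, and the highest intact well had 292 CPM. In Jurkat wells it reached 0, 52.7 and 319 CPM with #634413, and 15.5, 78.2 and 260 CPM with #634444, where every one of the 18 wells had counts. Among wells with a total of at least 203424 counts, detection with #634413 was alike, at 82.4% of A375 and 83.3% of Jurkat wells. With #634444, BCL2L1 was found in 93.8% of such A375 wells and 100% of such Jurkat wells. With #634444, 0 of 21 A375 wells exceeded the Jurkat median. The pooled levels were 42.2 and 23.3 CPM in A375 against 90.8 and 99.7 CPM in Jurkat, 2.15-fold lower in A375 with #634413 (log2 ratio -1.11, -1.26 to -0.96) and 4.28-fold lower with #634444 (log2 ratio -2.10, -2.30 to -1.89). With #634413, a single A375 well (replicate 3) held 246 counts, 46.8% of the pool, and the log2 ratio was -1.91 without it. Without Jurkat replicate 16, which held 310 counts, it was -0.78, under the 2-fold line. With each well weighted equally, it was -0.23. That mean includes the A375 well at 713 CPM (replicate 8), which was not intact and held 8 BCL2L1 counts.

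BCL2, the founding member of the family and the target of venetoclax, was scattered over wells (ENSG00000171791, chr18:63123346-63320128). A375 wells reached 0, 0 and 137 CPM with #634413 and 0, 0 and 37.8 CPM with #634444, with counts in 9 and 6 of 21 wells. Jurkat wells reached 0, 10.6 and 350 CPM with #634413 and 0, 24.6 and 148 CPM with #634444, with counts in 12 and 15 of 18 wells. More of the Jurkat wells held BCL2 and the ranges overlapped. The pools gave 22.9 and 12.9 CPM in A375 and 43.9 and 37.8 CPM in Jurkat. The log2 ratio was -0.94 (-1.15 to -0.73) with #634413, short of 2-fold, and -1.55 (-1.84 to -1.27) with #634444. With #634413, the log2 ratio was -0.24 without Jurkat replicate 2, which held 41.5% of the Jurkat counts, and -1.77 without A375 replicate 7, which held 48.4% of the A375 counts.

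BCL2L2, which encodes the survival protein BCL-W, had counts in 16 and 13 of 21 A375 wells (#634413 and #634444) but in only 1 and 4 of 18 Jurkat wells (ENSG00000129473, chr14:23298790-23311751). A375 wells reached 0, 25.5 and 566 CPM with #634413 and 0, 18.4 and 107 CPM with #634444. Jurkat wells reached 0, 0 and 7.24 CPM with #634413 and 0, 0 and 31.0 CPM with #634444. The A375 well at 566 CPM was not intact, and the highest intact well of that kit had 124 CPM. The pooled level was 38.7 and 41.4 CPM in A375 and 0.455 and 2.30 CPM in Jurkat, a log2 ratio of 6.41 (5.28 to 7.86) and 4.17 (3.58 to 4.83). The Jurkat pools rest on 6 and 24 counts. Throughout, a well was taken to hold a gene from 0.5 estimated counts on. Without the well that held all 6 of these counts (replicate 4), the log2 ratio with #634413 was at least 7.32 against a floor of 3 counts, and without Jurkat replicate 8, with 14 of the 24 counts, the log2 ratio with #634444 was 5.37.

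The readthrough gene BCL2L2-PABPN1 showed the reverse order. It reached 25.1 CPM (22.3 to 28.0) and 44.1 CPM (40.2 to 48.4) in the A375 pools, and 57.9 CPM (53.9 to 62.2) and 99.2 CPM (93.3 to 105) in the Jurkat pools. Of the counts on both genes, BCL2L2 held 60.7% and 48.4% in A375 but 0.781% and 2.26% in Jurkat. With #634444, 14 of 18 Jurkat wells had counts on the readthrough gene alone, whereas 9 of 21 A375 wells had counts on both. The sum of both genes was 63.8 CPM (59.4 to 68.4) and 85.6 CPM (80.1 to 91.4) in A375, against 58.3 CPM (54.3 to 62.6) and 102 CPM (95.5 to 108) in Jurkat. The log2 ratio of the sum was 0.13 with #634413 and -0.25 with #634444, an alternative added after the data had been seen. The line difference of BCL2L2 was past 2-fold for the gene by itself and not for the sum. How Kallisto divided reads from exons shared by BCL2L2, BCL2L2-PABPN1 and PABPN1 was not tested. Counts on the readthrough gene can include reads of PABPN1, so the sum need not measure transcription of BCL2L2.

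**Figure D1:**
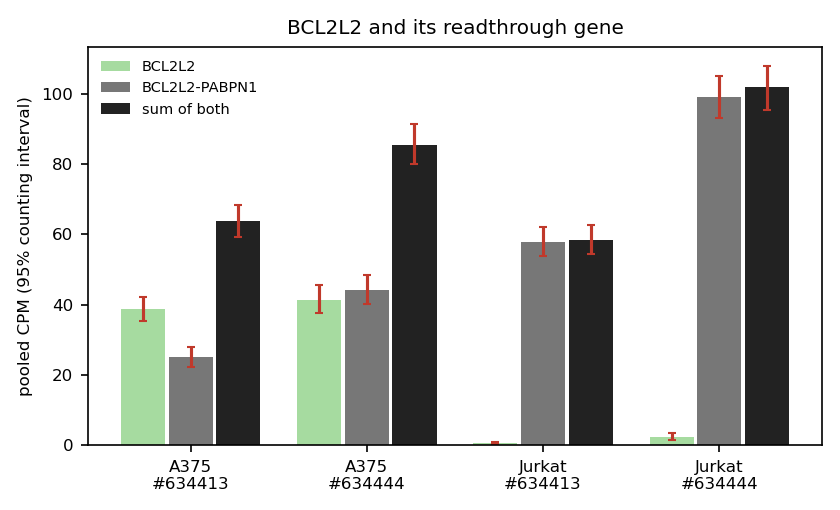
Pooled CPM of BCL2L2, of the readthrough gene BCL2L2-PABPN1 and of their sum (y axis) in the 4 groups of line and kit (x axis), with error bars for the 95% counting interval. BCL2L2 stands at 38.7 and 41.4 CPM in A375 and at 0.455 and 2.30 CPM in Jurkat, while the sums range from 58.3 to 102 CPM.

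BCL2A1, a survival member best known in blood cells and as a target of MITF in melanocytes, was nearly absent (ENSG00000140379, chr15:79960892-79971196). It had 3 counts in 1 A375 well of kit #634413 and 0 counts in the other 3 pools. A count of 0 allows up to 0.287 CPM in the A375 pool of #634444, 0.228 CPM in the Jurkat pool of #634413 and 0.287 CPM in that of #634444. A difference between the lines was not detectable at this depth.

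**Figure D2:**
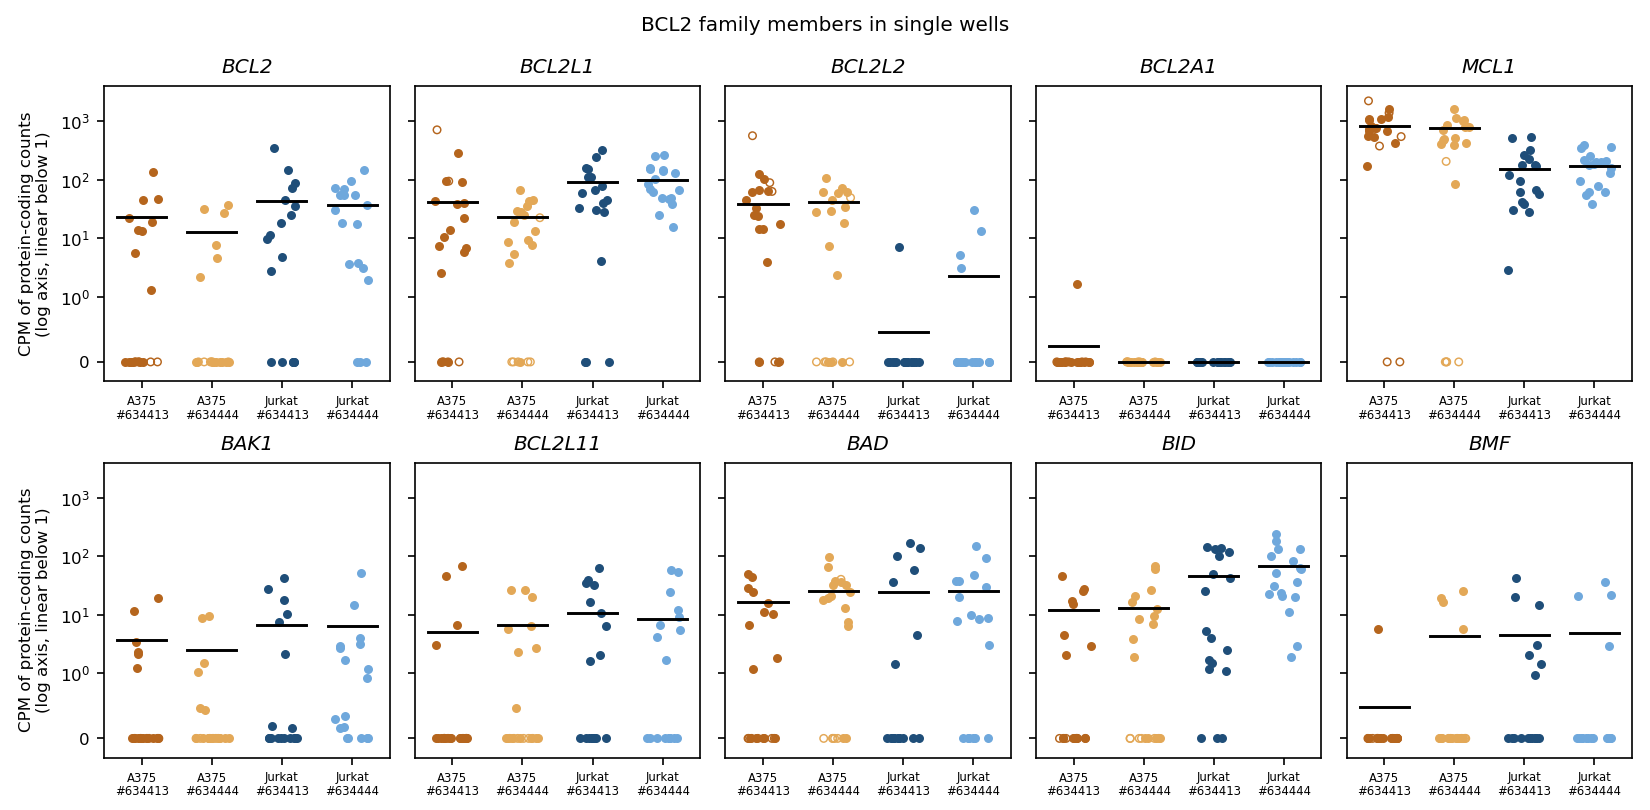
CPM of each of the 10 members (y axis, log scale that is linear below 1) in every well of the 4 groups (x axis). Each point is a well, open points are A375 wells that were not intact, and the black line is the pooled level. MCL1 is seen in every Jurkat well and every intact A375 well, BCL2L2 in few Jurkat wells, and BCL2A1 in 1 well of 78.

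Among the members that promote death, BID was the one whose pools differed past 2-fold in the same direction with both kits (ENSG00000015475, chr22:17734138-17774770). BID is cleaved by caspase-8, and its fragment carries a death receptor signal to mitochondria. A375 wells reached 0, 0 and 46.4 CPM with #634413 and 0, 1.91 and 69.5 CPM with #634444, with counts in 8 and 11 of 21 wells. Jurkat wells reached 0, 4.64 and 144 CPM with #634413 and 1.93, 44 and 241 CPM with #634444, with counts in 15 and 18 of 18 wells. Only 2 of 21 A375 wells exceeded the Jurkat median with #634444, and 5 of 21 with #634413. The pools held 12.2 and 13.3 CPM in A375 and 45.2 and 68.6 CPM in Jurkat, 3.71-fold lower in A375 (log2 ratio -1.89, -2.15 to -1.63) and 5.15-fold lower (log2 ratio -2.36, -2.64 to -2.11).

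Much of the BID signal in Jurkat was on transcripts with no annotated product. These took 69.0% (65.2 to 72.8) and 66.1% (62.5 to 69.6) of the BID counts in Jurkat, and 54.2% (45.7 to 62.1) and 31.8% (24 to 40.1) in A375. The transcript BID-205, which has no defined coding sequence, alone held 68.4% and 42.1% in Jurkat. Counts on BID transcripts with a product were also lower in A375, at 5.58 and 9.09 CPM against 14 and 23.2 CPM in Jurkat. The log2 ratios were -1.33 (-1.73 to -0.91) and -1.35 (-1.72 to -1.01). In every pool, most of these counts were on transcripts with a product of 99 residues (BID-203, BID-204 and BID-210). BID-208, with a product of 195 residues, held 0 and 23.4 counts in A375 and 7.81 and 101 counts in Jurkat. BID-211, with the same product length, held almost none. A line difference in the form of 195 residues alone was not tested.

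BAK1, an effector that forms the pores, was sparse (ENSG00000030110, chr6:33572547-33580293). It had counts in 6 and 4 of 21 A375 wells and in 6 and 9 of 18 Jurkat wells. Its highest well had 19.4 and 9.37 CPM in A375 and 43.4 and 52.1 CPM in Jurkat. Pools of 3.65 and 2.46 CPM in A375 and 6.74 and 6.53 CPM in Jurkat gave a log2 ratio of -0.89 (-1.45 to -0.37) with #634413. With #634444 the log2 ratio was -1.41 (-2.10 to -0.72), but the 2 pools together held fewer than 100 counts. With #634413 the log2 ratio was -0.23 without Jurkat replicate 4, which held 36 of the 88.8 Jurkat counts. With #634444, Jurkat replicate 18 alone held 70.3% of the Jurkat counts.

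BCL2L11 (BIM), a BH3-only protein that binds every survival member and is held down by ERK signalling, had no direction beyond 2-fold that both kits shared (ENSG00000153094, chr2:111119378-111168444). It had counts in 4 and 7 of 21 A375 wells and in 9 of 18 wells of Jurkat with either kit. The highest wells had 68.6 and 26.9 CPM in A375 and 61.9 and 58.8 CPM in Jurkat. The pools gave 5.15 and 6.60 CPM in A375, and 10.9 and 8.49 CPM in Jurkat. The log2 ratio was -1.08 (-1.53 to -0.64) with #634413 and -0.36 (-0.84 to 0.10) with #634444. Leaving out a single well of #634413 moved its log2 ratio between -2.08 and -0.73.

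BAD, a BH3-only protein that is held in the cytosol by 14-3-3 proteins when phosphorylated, was at like pooled levels in both lines with #634444 (ENSG00000002330, chr11:64269830-64284704). A375 wells reached 0, 0 and 49.4 CPM with #634413 and 0, 18.2 and 98.9 CPM with #634444. Jurkat wells reached 0, 0 and 168 CPM, and 0, 8.63 and 150 CPM. Counts were found in 10 and 14 of 21 A375 wells and in 7 and 12 of 18 Jurkat wells. The pools of 16.5 and 25.5 CPM in A375 and 24.7 and 25.8 CPM in Jurkat gave log2 ratios of -0.58 (-0.84 to -0.33) and -0.02 (-0.27 to 0.23). BMF, a BH3-only protein tied to the cytoskeleton, had 6 and 45 counts in A375 and 59 and 52 counts in Jurkat (ENSG00000104081, chr15:40087890-40108892). These were found in 1 and 4 of 21 A375 wells and in 7 and 4 of 18 Jurkat wells, and both comparisons of BMF fell below 100 counts.

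The number of members that differed is given beside the share of all genes that did. With 7 or 8 members compared, whether they differed more often than other genes was not tested. Genes with at least 100 counts over both pools were compared, and a 2-fold difference was taken as a difference between the lines. With #634413, 8 of 10 members passed the count minimum, of which 2 were higher and 3 lower in A375, while 30.9% and 22.3% of the 13975 genes compared were higher and lower. With #634444, 7 of 10 passed, of which 2 were higher and 3 lower, against 28.8% and 20% of 13375 genes. The same direction with both kits was seen for MCL1 and BCL2L2 (higher) and for BCL2L1 and BID (lower), 2 and 2 of 7 members, where 22.5% of 12748 genes were higher and 14.6% lower. The median log2 ratio of the members that passed was -0.91 with #634413 and -0.36 with #634444, and that of all genes compared was 0.17 and 0.12. With TMM factors these medians of all genes were 0.05 and 0.02, and the log2 ratios with #634413 came to -1.06 for BCL2, while BAK1 also reached 2-fold.

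**Figure D3:**
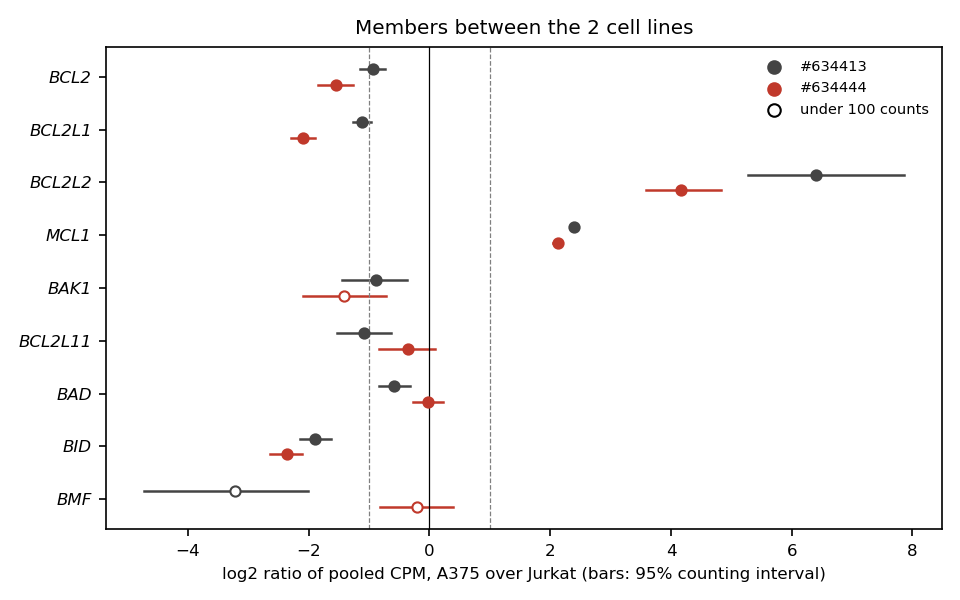
Log2 ratio of the pooled CPM, A375 over Jurkat (x axis), for 9 members (y axis) with each kit. Bars are 95% counting intervals, dashed lines mark 2-fold, open points have fewer than 100 counts in both pools together, and BCL2A1 is left out for lack of counts. MCL1 and BCL2L2 lie to the right with both kits, and BCL2L1 and BID to the left.

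Between kits, no member that passed the count minimum reached 2-fold in either line. In A375, this was 0 of 7 members, while 6.55% of 13875 genes were at least 2-fold higher and 6.12% lower with #634444 than with #634413. In Jurkat, it was 0 of 8 members, against 9.42% and 10.1% of 11957 genes. Among members past the count minimum, the largest kit ratio was that of BCL2L1 in A375 (log2 ratio -0.86, -1.08 to -0.63) and BID in Jurkat (0.60, 0.45 to 0.76). In A375 the BCL2L1 value was -0.05 without replicate 3 of #634413. Below the count minimum, the kit ratio was larger for BMF in A375 (3.16, 1.93 to 4.68, from 6 and 45 counts) and for BCL2L2 in Jurkat (2.33, 1.01 to 3.92, from 6 and 24 counts).

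TPM, which accounts for transcript length, allows levels of different members to be set side by side. In A375, MCL1 led with 123 ± 82.9 TPM (SD, n = 21) with #634413 and 101 ± 90.4 TPM (SD, n = 21) with #634444. The next members were BCL2L1 at 18.7 ± 29.7 TPM (SD, n = 21) with #634413 and BAD at 17.3 ± 20.5 TPM (SD, n = 21) with #634444. The gap between MCL1 and the next member was larger than the SD of MCL1 with #634413, and with #634444 only among intact wells, where MCL1 had 138 ± 80.5 TPM (SD, n = 15). In Jurkat, no gap between neighbouring members exceeded the SD, including the gap below the 4 members with the highest means. With #634413 these were BCL2L1 (51.6 ± 106 TPM), MCL1 (39.9 ± 34.5 TPM), BID (31.8 ± 50.4 TPM) and BAD (26.5 ± 47.7 TPM), each SD over 18 wells. With #634444 they were BID (53.6 ± 52.1 TPM), BCL2L1 (35.8 ± 24.3 TPM), MCL1 (35.1 ± 23.9 TPM) and BAD (28.9 ± 45.5 TPM). BCL2L11, BCL2, BMF, BAK1 and BCL2A1 had means of at most 8.75 TPM in every group, and each neighbour in these orders lay within 1 SD.

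MCL1 made up a larger share of the survival-member TPM in A375 than in Jurkat. Its share of the summed TPM of the 5 survival members was 79.0% and 88.0% in A375, and 40.3% and 45.5% in Jurkat. BCL2L1 took 12.1% and 6.60% in A375 and 52.1% and 46.4% in Jurkat. BCL2 took 1.11% and 1.23% in A375 against 7.51% and 7.64% in Jurkat. These shares count all transcripts of each gene, including the short form of BCL2L1 and the MCL1 form that skips the middle exon. MCL1 was the highest survival member in all 19 and 17 A375 wells that held any survival-member TPM, and in 9 of 18 wells of Jurkat with either kit. In the remaining Jurkat wells it was BCL2L1 (8 and 9 wells) or BCL2 (1 well with #634413). The order of BCL2L1 and MCL1 in Jurkat with #634413 rested on replicate 17, where BCL2L1 reached 457 TPM, since without it the shares were 37.1% for BCL2L1 and 52.6% for MCL1. As a mean of the shares in single wells, they were 39.5% for BCL2L1 and 51.4% for MCL1.

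**Figure D4:**
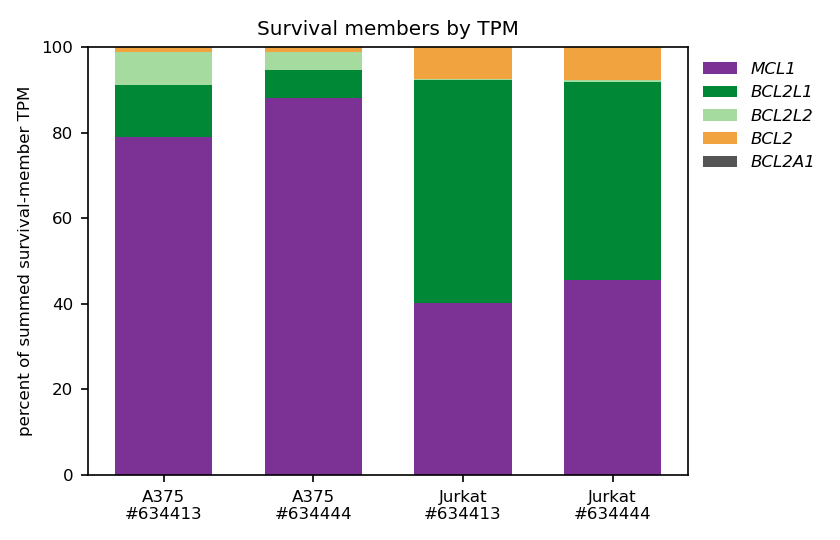
Share of each survival member in their summed TPM (y axis, percent) in the 4 groups of line and kit (x axis). MCL1 fills 79.0% and 88.0% of the A375 bars, and BCL2L1 and MCL1 divide most of the Jurkat bars. All transcripts of each gene are included, also the short form of BCL2L1.

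The summed TPM of the 5 survival members was above that of BAK1 and the 4 BH3-only members in 19 and 16 of 21 A375 wells and in 11 and 8 of 18 Jurkat wells. The survival sum was 155 ± 106 TPM and 115 ± 97.9 TPM in A375 (SD, n = 21 each), and the sum of the death-promoting members was 25.2 ± 39.7 TPM and 29.4 ± 35.4 TPM. In Jurkat, the survival sum was 99.0 ± 114 TPM and 77.2 ± 37.6 TPM (SD, n = 18 each), against 66.7 ± 60.6 TPM and 92.7 ± 72.0 TPM. The death-promoting sum exceeded the survival sum in 0 and 1 of 21 A375 wells and in 7 and 10 of 18 Jurkat wells, and both sums were 0 in the remaining 2 and 4 A375 wells. These are sums of RNA levels in which BID transcripts without a product and BCL2L1 transcripts of the short form are included. The sums leave out other death-promoting genes of the family. Of these, PMAIP1, BAX, BBC3, BOK and HRK had higher pooled levels in A375 with both kits, and BIK had lower ones. PMAIP1 was at 114 and 93.1 CPM in A375 and at 60.9 and 62.1 CPM in Jurkat. BAX was at 13.6 and 22.9 CPM against 9.64 and 10.7 CPM, and BIK at 0 and 0.860 CPM against 5.08 and 11.5 CPM. Whether the order of the sums holds with these genes added was not tested.

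BCL2L1 transcripts differed between the lines in form. In A375, the short form held 4.78% (3.10 to 6.94) of BCL2L1 counts with #634413 and 17.7% (13.1 to 23.0) with #634444. In Jurkat it held 42.0% (39.2 to 44.9) and 39.2% (36.2 to 42.2). The short protein, BCL-XS, is known to oppose survival, since it lacks regions that line the binding groove, whereas the long protein is BCL-XL. The difference was -37.2 percentage points (-40.6 to -33.7) with #634413 and -21.5 (-27.0 to -15.4) with #634444, A375 minus Jurkat. Leaving out a single well moved it between -51.9 and -31.7 and between -27.5 and -16.8. By summed TPM in place of counts it was -14.2 with #634413.

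In absolute terms, the short form was at 2.02 and 4.12 CPM in A375 and at 38.2 and 39.1 CPM in Jurkat, which was 18.9-fold and 9.49-fold lower in A375. The long form was at 39.7 and 18.1 CPM in A375 and at 52.3 and 52.0 CPM in Jurkat, 1.32-fold and 2.87-fold lower in A375. Among Jurkat wells with at least 10 BCL2L1 counts, the short form took at least 90% in 6 of 14 wells and at most 10% in 4 of 14 with #634413, and 4 and 8 of 17 with #634444. Among such A375 wells it took at least 90% in 0 of 8 wells of each kit, and at most 10% in 5 and 6 of 8. A low share of the short form did not always mean the long form, which took at least 90% in 4 of 14 and 6 of 17 such Jurkat wells and in 5 of 8 A375 wells with either kit. In Jurkat replicates 4 and 10 of #634444 the long form took 10.8% and 14.2% and the short form 0%. The remaining transcript is BCL2L1-208, with an annotated product of 307 residues. It held 8.70% of BCL2L1 counts in that pool and 4.67% in A375 with #634444. With #634413 it held 1.14% in A375 and 0.442% in Jurkat. In the GENCODE models, the 2 short transcripts have 661 exonic bases that no long transcript has, and the 6 long transcripts have 693 that no short transcript has. Only 1 of the 9 BCL2L1 transcripts had the same length in the deposited tables as in these models (BCL2L1-205 had 1157 bases against 2227), so the bases that separated the forms for Kallisto were not measured. As deposited, BCL2L1-206 had 381 bases and BCL2L1-208 had 894, too few to encode their annotated products of 233 and 307 residues. The forms are therefore classes of the annotation. BCL2L1-206, counted in the long form, held 10.4% of BCL2L1 counts in Jurkat with #634413.

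**Figure D5:**
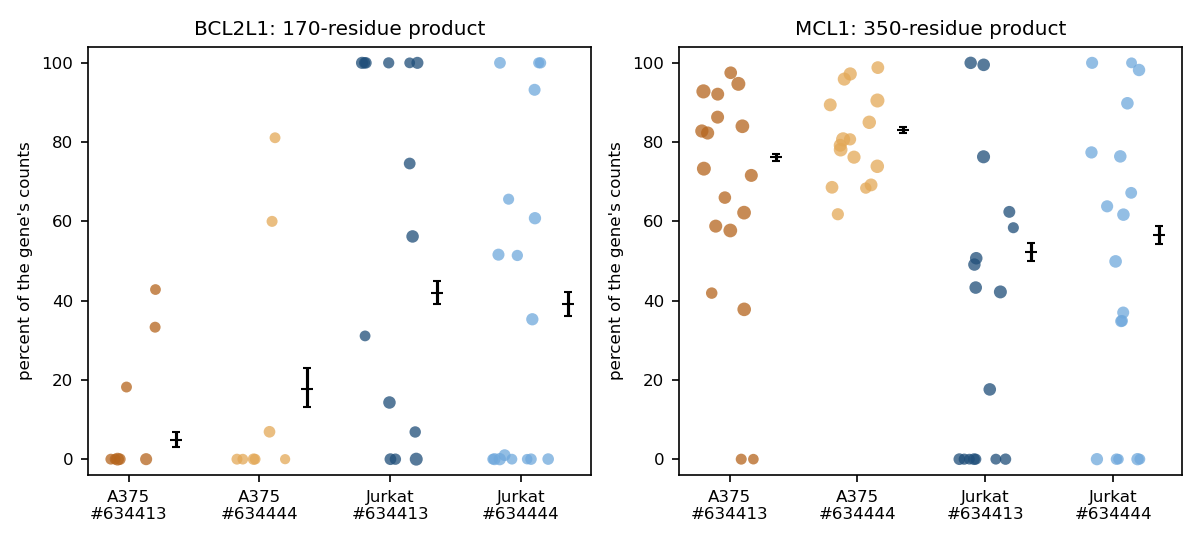
Share of the short form of 170 residues in BCL2L1 counts (left) and of the long form of 350 residues in MCL1 counts (right), in percent (y axis), for the 4 groups (x axis). Each point is a well with at least 10 counts of the gene, larger for more counts, and the black mark is the pool with its 95% counting interval. The short BCL2L1 form reaches 42.0% and 39.2% of the Jurkat pools and 4.78% and 17.7% of the A375 pools.

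MCL1 counts lay mostly on the long form in A375. The form of 350 residues, which carries the survival function, held 76.2% (75.3 to 77.0) and 83.1% (82.2 to 83.9) of MCL1 counts in A375, and 52.3% (50.1 to 54.5) and 56.6% (54.2 to 58.9) in Jurkat. The difference was 23.9 percentage points (21.5 to 26.2) with #634413 and 26.5 (24 to 29.0) with #634444, and stayed between 20.5 and 30.1 when any single well was left out. The shares are of counts, and the long transcript has 3932 bases, against 1110 for the one that skips the middle exon. They therefore do not give the order of the forms per molecule. By summed TPM, which accounts for transcript length, the difference was 22.5 percentage points with #634413 and 28.2 with #634444. The long form alone was 7.64-fold and 6.42-fold higher in A375, at 620 and 628 CPM against 81.2 and 97.8 CPM.

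The form of 271 residues, made by skipping the exon printed above and known to promote death, took 7.91% and 4.69% of counts in A375 and 21.6% and 10.9% in Jurkat. Its level was 64.4 and 35.4 CPM in A375 and 33.5 and 18.8 CPM in Jurkat, 1.92-fold and 1.88-fold higher in A375 (log2 ratios 0.94, 0.78 to 1.12, and 0.91, 0.66 to 1.17). The form of 197 residues took 8.77% and 5.34% in A375 and 6.09% and 19.2% in Jurkat, with no order that both kits shared. Transcripts with no product took 7.15% and 6.92% in A375 and 20.1% and 13.3% in Jurkat. Most of these counts in Jurkat were on the retained-intron transcript MCL1-203 (18.6% and 13.3% of MCL1 counts), which is 1099 bases long in the deposited tables and 4550 bases in the annotation used here.

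BCL2L11 had too few counts for a pattern of forms. Its form of 138 residues held 5.64% (1.73 to 15.2) and 51.9% (39.8 to 64.4) of counts in A375 and 44.7% (36.4 to 53.3) and 21.3% (13.4 to 31.3) in Jurkat, so the direction was opposite with the kits. The difference, A375 minus Jurkat, was -39.1 percentage points with #634413 and -21.2 without Jurkat replicate 5. With #634444 it was 30.5, and 6.35 without A375 replicate 14 and 47.4 without Jurkat replicate 5. The form of 198 residues held 33.2% and 23.2% of counts in A375, 21.3 and 16.1 counts, and less than 1 count in both Jurkat pools. Transcripts classed as targets of nonsense-mediated decay held 55.3% and 61.1% of BCL2L11 counts in Jurkat and 8.20% and 11.7% in A375. With only transcripts of the protein-coding class, the BCL2L11 log2 ratio was -0.04 with #634413 and 0.82 with #634444. At most 5 wells of any group had at least 10 BCL2L11 counts. For BCL2, the alpha form of 239 residues held 74.7% to 87.2% of counts in the 4 groups, and the beta form of 205 residues 5.06% to 24.2%.

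Detection in single cells set these levels in context. In wells with at least 203424 counts (25% of the median total), a well held counts of 5 members at the median with #634413 and 6 with #634444 in both lines, and the range over all groups was 1 to 9. Once every such well was thinned to 203424 counts, the expected share of wells with MCL1 was 96.5% to 100% in the 4 groups, and that with BCL2L1 was 70.8% to 99.5%. For BCL2L2 it was 76.8% and 74.7% in A375 and 3.77% and 16.2% in Jurkat, compared with 82.4% and 81.2%, and 5.56% and 22.2%, before thinning. For BID it was 35.6% and 54.4% in A375 and 56.9% and 92.2% in Jurkat, compared with 47.1% and 68.8%, and 83.3% and 100%. Thinning narrowed the gap between the lines for BID with #634413, and wells with at least 5 BID counts were 35.3% in A375 and 44.4% in Jurkat with that kit. Thinning left out 4 and 5 shallower A375 wells and no Jurkat well.

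Other genes of the pathway were taken from lists, and genes past 2-fold in the same direction with both kits were counted. Of 11 other BCL2 family genes, 4 passed the count minimum with both kits, of which 0 were higher and 1 was lower in A375. This was BCL2L12, at 4.98 and 5.29 CPM in A375 and 15.4 and 21 CPM in Jurkat. BAX, the other main effector, was not named by that rule and was at 13.6 and 22.9 CPM in A375 against 9.64 and 10.7 CPM in Jurkat (log2 ratios 0.49, 0.15 to 0.84, and 1.10, 0.77 to 1.43). Of 15 mitochondrial release and caspase genes, all 15 passed, with 1 higher and 2 lower in A375. XIAP, an inhibitor of caspases, was at 46.1 and 93.3 CPM in A375 and 16.1 and 24.3 CPM in Jurkat. BIRC5 (survivin), which acts in mitosis as well as in apoptosis, was at 27.1 and 64.9 CPM in A375 and 168 and 243 CPM in Jurkat. VDAC3, a channel of the outer mitochondrial membrane, was at 43.4 and 38.9 CPM in A375 and 126 and 145 CPM in Jurkat.

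Of 16 partners and modifiers of members, 15 passed, with 0 higher and 2 lower in A375. Both were 14-3-3 proteins, the family that binds phosphorylated BAD. YWHAH was at 53.7 and 43.8 CPM in A375 and 223 and 217 CPM in Jurkat, and YWHAQ at 182 and 177 CPM in A375 and 390 and 490 CPM in Jurkat. Of 6 transcription factors known to act on members, 6 passed, with 1 higher and 1 lower. MITF, which drives BCL2 and BCL2A1 in melanocytes, was at 15.3 and 22.1 CPM in A375 and 3.64 and 1.44 CPM in Jurkat. MYB, which drives BCL2 in T cells, was at 4.49 and 0.669 CPM in A375 and 754 and 1027 CPM in Jurkat. All 18 Jurkat wells held MYB whichever kit was used, compared with 2 of 21 A375 wells. In the Jurkat pool of #634413, 1 well held 93.8% of the MITF counts.

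For the most counted member of each role, the genes with the most similar pattern over wells were listed. Over 69 wells with at least 203424 counts and 13696 genes, Spearman's rho of CPM with MCL1 was highest for ALDH1A3 (0.80), AQP7 (0.79) and IGF2BP2 (0.79). ALDH1A3 was at 340 and 248 CPM in A375 and at 0 in both Jurkat pools. For BAK1 the closest were MRPL39 (0.52), SSTR5-AS1 (0.51) and TK1 (0.48), and for BID they were ATP5MJ, POLM and TRBV12-3 (0.59 each). TRBV12-3, a T cell receptor segment, was at 0 in both A375 pools and at 160 and 181 CPM in Jurkat. The wells of both lines and kits enter these values together, and the values are a description only.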

How the data were processed

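Estimated counts and TPM were used for 78 wells, 21 A375 and 18 Jurkat wells with each kit. The authors trimmed paired-end reads with cutadapt and quantified Ensembl transcripts in stranded mode with Kallisto 0.43.1. The estimated counts deposited by the authors are per transcript and not normalized. TPM, deposited by the authors from the same run, divides by effective length.

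Transcripts were assigned to genes with GENCODE 44 by identifier: 195850 of 200206 matched, and 47 of the 71 member transcripts had the annotated length. Products come from that annotation, also where the deposited length differed. Members, gene lists and rules were chosen with earlier results of these data known. Counts were summed per group and divided by protein-coding counts. Intervals are exact (Poisson, Clopper-Pearson, conditional binomial for ratios) at 95%. A pool at 0 was set to 3 counts. The interval of a difference of shares joins the exact intervals of both shares by the square-and-add method. Reads carry no molecular identifiers, so intervals and floors cover counting error only. Each well is a cell and no culture is named, so no p-value was computed. Genes outside the members are named where both kits passed 2-fold in the same direction, at most 4 per list and direction, and by the likeness of their pattern over wells for 3 genes per role. Of 3003 pairs of wells, 0 held identical values. The pooling was tested on simulated data. Alternatives used edgeR 4.0.16 (TMM) and DESeq2 1.42.0 size factors. No protein table was used here.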

Additional observations from a re-analysis of the deposited data

How the results depend on the processing

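No paired analysis was possible because the result comes from no test and wells were numbered in accession order only. MCL1, BCL2L2, BCL2L1 with #634444 and BID kept their direction and stayed past 2-fold between the lines under all 8 alternatives compared, and BCL2L1 with #634413 under 7 of them. With its readthrough gene added, a setting chosen after seeing the data, BCL2L2 came to 0.13 with #634413 and turned to -0.25 with #634444. Between the lines, members past 2-fold numbered 5 with each kit, and 3 to 6 with #634413 and 5 to 5 with #634444 when single wells were left out. Between kits, 0 members passed in A375, compared with 4 with equal weight for wells, 2 by mean TPM, 1 with protein-coding transcripts and 0 to 2 with single wells left out. In Jurkat 0 passed, compared with 1 by mean TPM and 0 to 1 with single wells left out. The cause was not tested.

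Differences of isoform shares, A375 minus Jurkat in percentage points, moved with the weighting. With wells weighted equally, the short BCL2L1 form gave -45.9 and -14.4, the long MCL1 form 28.9 with #634413, and the 138-residue BCL2L11 form -10.6 with #634413. By summed TPM the short BCL2L1 form gave -14.2 with #634413. Among transcripts with a product, the long MCL1 form gave 16.6 and 23.9, and the BCL2L11 form -93.9 and 3.85. Leaving out single wells gave -51.9 to -31.7 and -27.5 to -16.8 for BCL2L1, 20.5 to 28.9 and 21.8 to 30.1 for MCL1, and -50.5 to -21.2 and 6.35 to 47.4 for BCL2L11.

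Among wells with a total of at least 203424 counts, the members counted in at least 50% of wells with #634413 fell from 5 to 3 in either line. This was with at least 5 counts in place of 0.5. The share of all genes past 2-fold between kits was 12.7% in A375 and 19.6% in Jurkat, and 35.4% and 43.3% with a minimum of 10 counts, or 39.7% and 47.7% with a minimum of 1 count. The MCL1 share of survival-member TPM moved by less than 1 SD between wells, but in Jurkat with #634413 it went from 40.3% to 51.4% as a mean of wells and to 52.6% without replicate 17. Depth limits BCL2A1, BMF, BAK1 and the forms of BCL2L11.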
